A study of Mus musculus with 48 samples.

Results

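The genes described here are those that encode the machinery of mitochondrial oxidative phosphorylation (OXPHOS) in the nuclear genome. They were chosen by symbol alone, as every gene in the table whose name begins with Nduf, Uqcr, Atp5 or Cox4 to Cox8, or is Sdha, Sdhb, Sdhc or Sdhd. This gave 93 of the 15782 genes measured. Of these, 38 were counted with complex I, 4 with complex II, 8 with complex III, 19 with complex IV and 17 with complex V, and the other 7 (Ndufaf1 to Ndufaf6 and Ndufaf8) encode assembly factors of complex I. Ndufa4 and its paralogue Ndufa4l2 were placed in complex IV, where the Ndufa4 protein resides.

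Spatial transcription was measured with GeoMx Digital Spatial Profiling, in which the oligonucleotide tags of probes bound to mRNA are released by UV light from a selected area of a tissue section and sequenced. The mice were male C57BL/6 animals of 10 weeks, either flown for 35 days on the International Space Station (FLT) or kept for 35 days in flight hardware on the ground (GC), where the protocol began 3 days later. Each received saline (SAL) or BuOE (MnTnBuOE-2-PyP5+, a manganese porphyrin that mimics superoxide dismutase) subcutaneously at 1 mg/kg in 0.2 mL, first 7 days before launch and weekly thereafter. With 3 mice in each of GC-SAL, FLT-SAL, GC-BuOE and FLT-BuOE, 1 area per mouse was profiled in each of 4 regions, namely Cornu Ammonis 1 (CA), dentate gyrus (DG), frontal cortex (FCT) and cortex (CT), for 48 areas of interest (AOIs). Flown mice arrived no later than 20 h after splashdown, and the 4 groups lay on 1 slide each, so that slide and group cannot be told apart. Comparisons between regions were made within mice and within slides.

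OXPHOS couples the oxidation of NADH and succinate to the synthesis of ATP. Complex I (NADH dehydrogenase) and complex II (succinate dehydrogenase) pass electrons to ubiquinone, complex III passes them on to cytochrome c, and complex IV (cytochrome c oxidase) passes them to oxygen. Complexes I, III and IV pump protons out of the matrix, and complex V (ATP synthase) uses their return to make ATP. Neurons depend on this pathway to restore ion gradients after firing and to support transmission at synapses. The catalytic cores of complexes I, III and IV, and part of the membrane sector of complex V, are encoded by mitochondrial DNA, whose transcripts were not analysed here.

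Nuclear respiratory factor 1 (NRF1) and the ETS-family factor NRF2 are classical activators of nuclear OXPHOS genes, and Sp1 (a GC-box factor) and YY1 have also been described at their promoters. The promoters below were selected from those of members named in the regional differences described next. That of Ndufa3, which also holds a GC box, is not shown. Those shown are the RefSeq promoters of Cox6a1, Atp5b, Atp5g2, Atp5l and Cox7b2, and each holds at least 1 of the motifs searched. Each is the 250 bases before the RefSeq start in GRCm38.p6, written 5′ to 3′ on the gene's own strand. Capitals mark the NRF1 core CGCATGCG, the ETS core CCGGAAG and the GC box GGGCGG, on either strand. The positions are chr5:115348959-115349208 (minus strand) for Cox6a1, chr10:128083057-128083306 (plus strand) for Atp5b, chr15:102671048-102671297 (minus strand) for Atp5g2, chr9:44920743-44920992 (minus strand) for Atp5l and chr5:71548206-71548455 (minus strand) for Cox7b2.
Cox6a1: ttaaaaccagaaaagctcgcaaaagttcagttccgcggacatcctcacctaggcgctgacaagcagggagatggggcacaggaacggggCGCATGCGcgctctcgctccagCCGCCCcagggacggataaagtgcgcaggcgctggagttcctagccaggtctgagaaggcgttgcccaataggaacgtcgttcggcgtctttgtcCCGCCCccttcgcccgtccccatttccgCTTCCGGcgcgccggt
Atp5b: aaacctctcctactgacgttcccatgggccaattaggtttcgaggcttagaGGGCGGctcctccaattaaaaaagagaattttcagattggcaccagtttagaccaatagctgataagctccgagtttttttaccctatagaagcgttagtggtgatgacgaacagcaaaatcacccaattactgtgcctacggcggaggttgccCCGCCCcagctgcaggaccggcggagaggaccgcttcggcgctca
Atp5g2: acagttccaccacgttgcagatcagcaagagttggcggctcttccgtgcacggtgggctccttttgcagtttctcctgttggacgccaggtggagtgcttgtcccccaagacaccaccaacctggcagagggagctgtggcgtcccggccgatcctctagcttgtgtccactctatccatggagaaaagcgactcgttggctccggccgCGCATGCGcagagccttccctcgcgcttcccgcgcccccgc
Atp5l: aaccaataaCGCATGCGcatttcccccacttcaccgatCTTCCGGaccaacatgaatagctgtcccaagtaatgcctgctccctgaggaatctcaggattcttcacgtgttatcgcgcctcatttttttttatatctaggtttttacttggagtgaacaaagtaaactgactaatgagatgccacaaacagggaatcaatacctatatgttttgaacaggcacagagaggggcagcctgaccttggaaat
Cox7b2: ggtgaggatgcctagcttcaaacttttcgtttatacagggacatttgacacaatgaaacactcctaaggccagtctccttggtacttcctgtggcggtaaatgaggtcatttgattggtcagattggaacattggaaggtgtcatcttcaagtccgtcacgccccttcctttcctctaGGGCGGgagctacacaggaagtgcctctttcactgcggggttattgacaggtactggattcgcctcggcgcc
The Cox6a1 promoter held the NRF1 core 161 bases and the ETS core 16 bases before the start, and Atp5g2 held the NRF1 core 41 bases before it. Among the 75 members with a RefSeq promoter, 8 (10.7%) held the NRF1 core, against 1.55% of all 32851 promoters searched. The ETS core stood in 14 of them (18.7%), against 6.91%, and the GC box in 30 (40%), against 32.7%. The YY1 core AAGATGG stood in 1 (1.33%), against 4.49%. These are matches of letters and not bound sites.

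Each gene was read by 1 probe, so the values of different genes are not compared as levels. The total of deduplicated probe counts per AOI ranged from 322629 to 1579380, with a median of 652040. Over the 48 AOIs, 92 members had a mean Q3-normalized value above 1.5 times that of the negative-control probes, as did 91.7% of all genes. Cox8b, the form of subunit 8 known from heart and skeletal muscle, was the exception at 1.48 times. Within complex I the mean Q3-normalized value ran from 24.2 (Ndufb11b) to 107 (Ndufs5), within complex II from 29.7 (Sdhc) to 74.6 (Sdha), and within complex III from 23.2 (Uqcrc1) to 139 (Uqcrh). It ran from 21 (Cox8b) to 234 (Cox6a1) within complex IV, and from 40.6 (Atp5mpl) to 186 (Atp5a1) within complex V. Uqcrc1 encodes a core protein of complex III found in every cell with mitochondria, yet its probe stood only 1.63 times above background, so its values carry little signal. The region labels were checked against marker genes. All 4 dentate granule cell markers were higher in DG than in CA, and all 4 CA1 pyramidal markers were lower, in limma tests at an adjusted p below 0.05.

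The question of how OXPHOS transcription differed across the brain was addressed first. It was lower in both hippocampal regions than in both cortical regions. The mean of log2(Q3 + 1) over the 93 members had a median of 5.69 in CA and 5.70 in DG, with ranges of 5.61 to 5.82 and 5.66 to 5.82. It was 5.95 in FCT and 6.04 in CT, with ranges of 5.82 to 6.05 and 5.80 to 6.15. Within each mouse, the hippocampal mean (CA and DG) minus the cortical mean (FCT and CT) was -0.27 ± 0.059 (SD, n = 12 mice) on the log2 scale. It ranged from -0.33 to -0.16 and was negative in 12 of 12 mice.

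**Figure D1:**
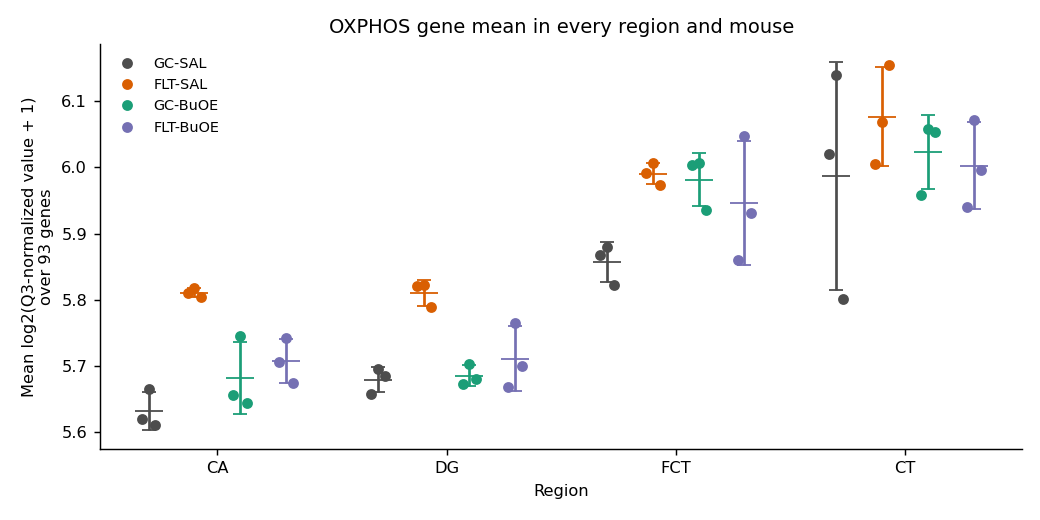
The mean log2(Q3 + 1) over the 93 OXPHOS genes is plotted for every AOI by region, with each point 1 mouse, the horizontal bar the group mean and the whiskers the SD of 3 mice. The medians for CA, DG, FCT and CT are 5.69, 5.70, 5.95 and 6.04, and the FLT-SAL points lie above the GC-SAL points in CA, DG and FCT and overlap them in CT.

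Gene by gene, 7 of the 93 members were called lower in the hippocampus and none higher, by limma with an adjusted p below 0.05 and a difference of more than 1.5-fold. Of all genes, 3.18% were called in this comparison in either direction. At the adjusted p alone, 64 members were lower, against 13.0% of all genes, and 1 was higher (Cox7b2), against 9.68%. The median log2 difference of the members was -0.26, and that of all genes was 0.03. A total of 35 members (37.6%) were lower in every one of the 12 mice, compared with 5.25% of all genes. None was higher in all 12 mice, compared with 2.53% of all genes.

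The 7 called members belong to complexes I, IV and V. Cox4i1 (chr8:120668222-120674207, GRCm38) encodes the widespread form of subunit 4, which regulates complex IV. Its Q3-normalized value ran from 110 to 189 with a median of 140 in the 24 hippocampal AOIs, and from 200 to 329 with a median of 273 in the 24 cortical AOIs. The 2 sets did not overlap, and the log2 difference was -0.87 ± 0.051 (SE), 1.83-fold lower (adjusted p = 2.4e-29). Atp5b (chr10:128083273-128090391), the catalytic beta subunit of ATP synthase, ran from 88.9 to 167 (median 118) in the hippocampus and from 146 to 297 (median 213) in the cortex. Its log2 difference was -0.77 ± 0.055 (adjusted p = 1.3e-23), and the ranges overlapped between 146 and 167. Atp5a1, the alpha subunit with which it forms the catalytic head, differed by -0.50 on the log2 scale.

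The other 5 called members encode small subunits without a catalytic centre. Cox7b (chrX:106015700-106022450) had medians of 84.9 in the hippocampus and 138 in the cortex, a log2 difference of -0.66 ± 0.055 (adjusted p = 2.3e-19). Ndufa3 (chr7:3617373-3620327), an accessory subunit of the membrane arm of complex I, had medians of 49.0 and 76.3 and differed by -0.63 ± 0.067 (adjusted p = 6.1e-14). The rest were further nuclear-encoded subunits that surround the core of complex IV. Cox5b (chr1:36691449-36693681) differed by -0.61 ± 0.057, Cox6a1 (chr5:115345642-115348981) by -0.61 ± 0.048 and Cox6c (chr15:35925886-35938246) by -0.59 ± 0.052. Cox6a1 values lay between 146 and 244 in the hippocampus and between 223 and 396 in the cortex. Cox8a, the smallest subunit of complex IV, was just outside the fold threshold at -0.57.

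**Figure D2:**
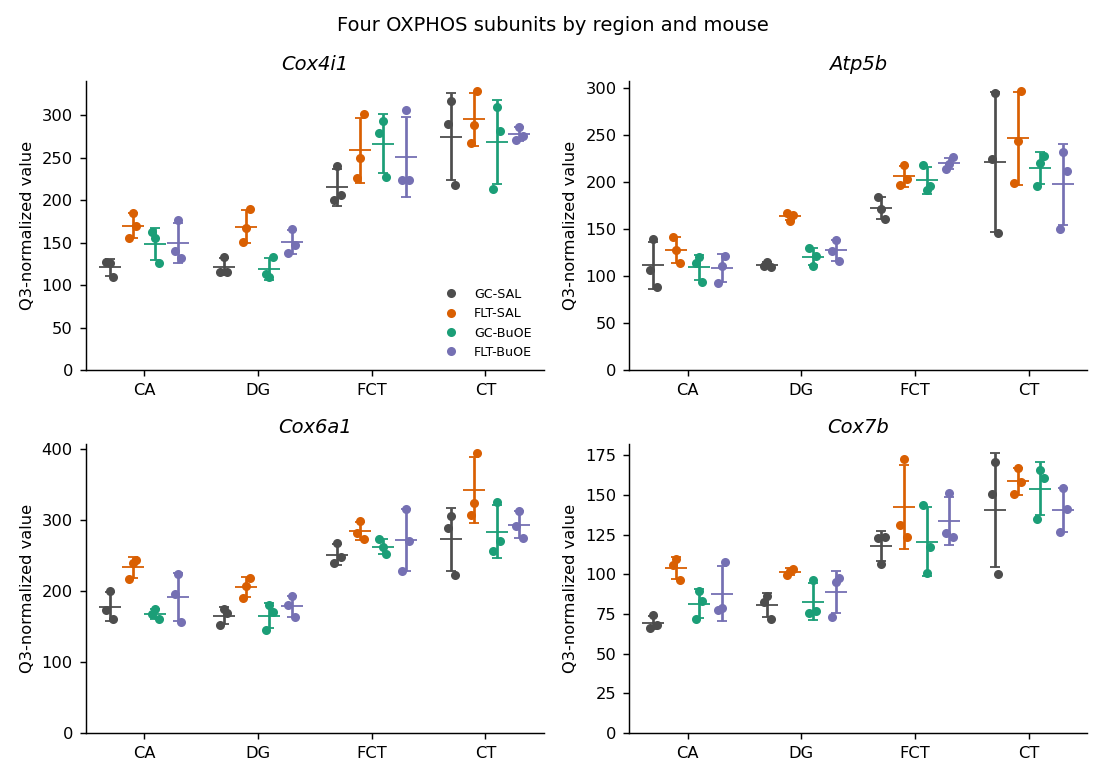
Q3-normalized values of Cox4i1, Atp5b, Cox6a1 and Cox7b are plotted by region, with each point 1 mouse, the horizontal bar the mean and the whiskers the SD of 3 mice. Cox4i1 lies between 110 and 189 in CA and DG and between 200 and 329 in FCT and CT, and Atp5b in DG is highest in FLT-SAL.

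By complex, the lower share was largest in ATP synthase. At the adjusted p alone, 16 of 17 complex V members were lower in the hippocampus (median log2 difference -0.35), as were 28 of 38 of complex I (-0.26), 3 of 4 of complex II (-0.29), 5 of 8 of complex III (-0.26) and 12 of 19 of complex IV (-0.41). None of the 7 complex I assembly factors passed in either direction, and their median was -0.002. The mean over complex V members was -0.38 ± 0.106 (SD, n = 12 mice) in the hippocampus relative to the cortex, and that over the assembly factors was -0.0097 ± 0.0547, negative in 6 of 12 mice. Differences between complexes were not tested. Among further subunits, Sdha, the flavoprotein of complex II, differed by -0.42, Sdhb, its iron-sulfur partner, by -0.39, Cox5a by -0.45 and Uqcrc2 by -0.24. Uqcrc1 differed by -0.28 (adjusted p = 0.023). Ndufs1 (-0.10), Ndufv1 (-0.18) and Uqcrfs1, the Rieske iron-sulfur protein (-0.19), did not pass.

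**Figure D3:**
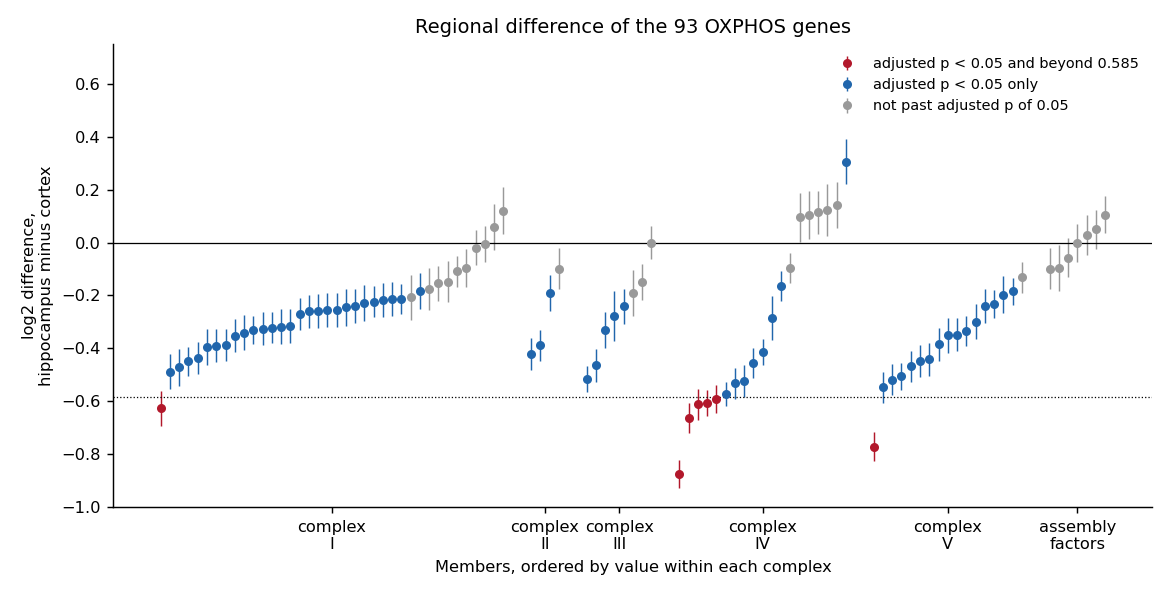
The log2 difference of hippocampus minus cortex is plotted for each of the 93 members, ordered within complex, with whiskers for the SE of the limma fit. The 7 called members lie below the dotted line at the 1.5-fold threshold, Cox7b2 is the 1 member past the adjusted p above 0, and the 7 assembly factors lie around 0.

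Several OXPHOS subunits exist as a widespread form and as forms known from particular tissues. Cox7b2, the paralogue of Cox7b, was higher in the hippocampus by 0.31 ± 0.087 on the log2 scale (1.24-fold, adjusted p = 0.0044), with medians of 29.2 in the hippocampus and 22.8 in the cortex and overlapping ranges. No member was higher at the adjusted p with background subtraction, in saline mice alone or for DG alone against the cortex. Negative-control values ran from 16.1 to 20.9 in CA and 9.24 to 13.5 in DG. They ran from 12.1 to 18.0 in FCT and 13.3 to 16.8 in CT, and their part in the Cox7b2 value was not tested. Cox7b itself was lower, as given above. Ndufa4 was lower by -0.53, whereas Ndufa4l2, its hypoxia-responsive paralogue, differed by 0.10 (adjusted p = 0.51). Cox7a2 was lower by -0.41, and its muscle form Cox7a1 differed by 0.11 (adjusted p = 0.34). Cox4i2, the form of subunit 4 known from lung, differed by 0.14 (adjusted p = 0.25). Cox8b and Cox8c differed by 0.12 and 0.10, with adjusted p of 0.42 and 0.46. The muscle form Cox6a2 was lower by -0.29 (adjusted p = 0.0060), and Cox6b1, measured here without Cox6b2, was lower by -0.52. The 3 genes that encode the same c subunit of the ATP synthase rotor ring differed from the cortex by -0.18 (Atp5g1, adjusted p = 0.0030), -0.13 (Atp5g2, adjusted p = 0.089) and -0.47 (Atp5g3, adjusted p = 2.9e-11). The contrasts between paralogues were not themselves tested.

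Neuronal markers moved with the regional difference. The summed Q3-normalized value of 5 neuronal markers ran from 398 to 584 (CA), 459 to 683 (DG), 795 to 1250 (FCT) and 812 to 1635 (CT), and 4 of the 5 were called lower in the hippocampus. Snap25, a synaptic protein, differed by -1.52 on the log2 scale, while Rbfox3, the nuclear protein NeuN, differed by -0.07 (adjusted p = 0.46). All 5 oligodendrocyte markers were also lower at the adjusted p. Median nuclear density per 10000 µm2 was 20.1 (CA), 45.3 (DG), 29.7 (FCT) and 26.3 (CT), highest in DG, which was near CA in OXPHOS mean. The part of these markers in the OXPHOS difference was not tested, and in these bulk areas fewer cells of a type and less RNA per cell cannot be told apart.

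**Figure D4:**
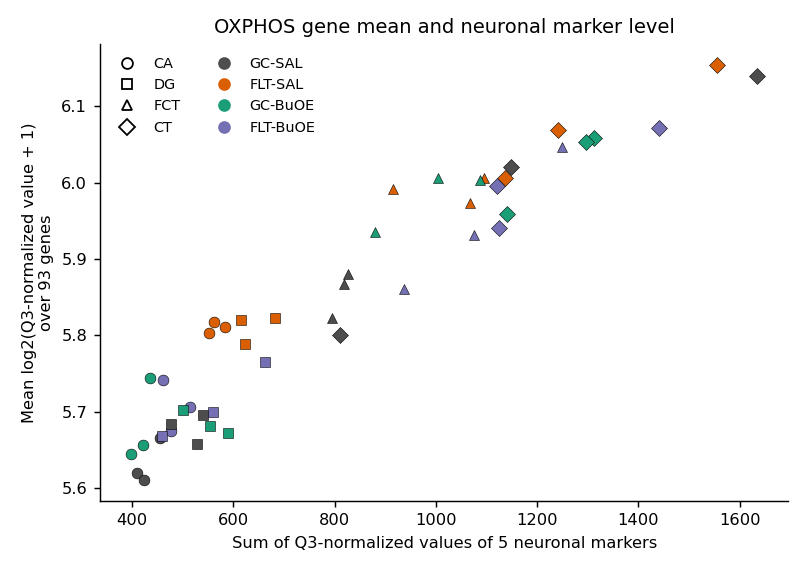
The mean log2(Q3 + 1) over the 93 OXPHOS genes is plotted against the summed Q3-normalized value of 5 neuronal markers in each of the 48 AOIs, with symbols for regions and colours for groups. CA and DG AOIs hold sums of 398 to 683 and lie low on both axes, and FCT and CT AOIs hold sums of 795 to 1635 and lie high on both.

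Other energy genes were examined in the same fit. Of 16 glycolytic genes, 15 were lower in the hippocampus at the adjusted p and 1 was higher, with a median log2 difference of -0.58. In the tricarboxylic acid cycle and pyruvate dehydrogenase list, 7 of 16 were lower and Mdh2, mitochondrial malate dehydrogenase, was called (-0.66). Of 8 carriers and cytochrome c genes, 5 were lower. They included Slc25a4, the ADP/ATP exchanger (-0.58), Vdac1, the outer membrane channel (-0.43), and Cycs, cytochrome c (-0.21). Only 5 of 36 further assembly factors were lower (median -0.03), and 1 of 7 regulators of mitochondrial biogenesis was, namely the coactivator Ppargc1a (-0.31, adjusted p = 0.0013). Over the 48 AOIs, the genes outside the set whose values followed the OXPHOS mean most closely were Cfl1 (Pearson r = 0.96), Mdh1, Snap25, Rab3a and Tpi1 (r = 0.95 each). These 48 points share mice, slides and regions, and the correlations are descriptions.

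Within the hippocampus, no member was called between DG and CA by limma, against 4.1% of all genes. At the adjusted p alone, 10 were higher in DG (10.5% of all genes) and 7 were lower (13.1% of all genes), so the share of members was near that of all genes in the first direction and below it in the second. With edgeR the split was 13 higher and 1 lower, and with DESeq2 12 higher and 1 lower, whereas it was 4 higher and 12 lower with quantile normalization and 8 higher and 15 lower with background subtraction. An unadjusted p below 0.05 was reached by 29 members with limma. The members' median log2 difference was 0.02, and that of all genes was -0.07.

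The leading member in DG was Atp5g2, 1 of the c-subunit genes. Its values ran from 49.3 to 87.7 (median 68.5) in CA and from 72.3 to 113 (median 99.1) in DG, and it was higher in DG in 12 of 12 mice (log2 difference 0.53 ± 0.081, adjusted p = 6.6e-08). Atp5l, subunit g of the membrane sector, had medians of 75.8 and 98.9 and differed by 0.41 ± 0.074 (adjusted p = 4.8e-06). Ndufs3, a core subunit of the matrix arm of complex I, and Ndufb4, an accessory subunit of its membrane arm, each differed by 0.39 and were higher in DG in 12 of 12 mice. Cox8a went the other way, from 174 to 233 (median 208) in CA and from 135 to 176 (median 163) in DG, with a log2 difference of -0.36 ± 0.066 (adjusted p = 6.5e-06), lower in 12 of 12 mice. Uqcrfs1 (-0.41, adjusted p = 0.0097) and Ndufa5 (-0.29, adjusted p = 0.010) were also lower in DG. Of the 93 members, 3 (3.23%) were higher in DG in all 12 mice, beside 3.74% of all genes. Only 1 (1.08%) was lower in all 12, beside 1.93% of all genes.

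Within the cortex, no member differed between FCT and CT at an adjusted p below 0.05 with limma or edgeR, against 0.101% of all genes called and 0.786% past the adjusted p. DESeq2 put 7 members below it, all lower in FCT. With limma, 16 of 93 members had an unadjusted p below 0.05, all lower in FCT, compared with 8.22% of all genes in either direction, and 21 did with edgeR and 22 with DESeq2. The members' median was -0.08 and that of all genes 0.004. The leading members by the limma statistic were Cox7a2 (-0.21, adjusted p = 0.17), Ndufaf4 (-0.29, adjusted p = 0.22) and Cox8a (-0.19, adjusted p = 0.24) on the lower side, and Cox8b (0.28, adjusted p = 0.61) on the higher side.

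The effect of flight in saline-treated mice was then examined. No member was called between FLT-SAL and GC-SAL in any region by limma, edgeR or DESeq2. Of all genes, 0.139% (CA), 0.266% (DG), 0.0507% (FCT) and 0.0887% (CT) were called. Most members had a positive difference, with 69, 74, 69 and 70 of 93 positive in CA, DG, FCT and CT. Their median log2 differences were 0.17, 0.14, 0.15 and 0.09, beside 0.02, -0.01, 0.03 and 0.01 for all genes. The CT median became -0.02 without GC-SAL replicate 3. The p-values measure the spread between 3 mice on 1 slide against 3 mice on another.

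Counts at lower stringency showed the same side. With an unadjusted limma p below 0.05 CA had 18 members (6.73% of all genes), DG 13 (7.41%), FCT 11 (5.66%) and CT 4 (5.27%). All were higher in FLT-SAL except 1 in DG (Cox4i2) and 1 in CT (Cox8c). The corresponding counts were 17, 19, 9 and 3 with edgeR and 7, 8, 4 and 1 with DESeq2. All 3 FLT-SAL mice lay above all 3 GC-SAL mice for 19 CA members (7.55% of all genes), 20 in DG (7.39%), 24 in FCT (7.41%), and for CT 3 (5.14%). The reverse held for 0 CA members (5.33%), 1 in DG (7.45%), 1 in FCT (4.7%), and for CT 2 (5.23%).

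As a mean over the 93 members, log2(Q3 + 1) in CA was 5.62, 5.66 and 5.61 in the 3 GC-SAL mice and 5.81, 5.82 and 5.80 in the 3 FLT-SAL mice. In DG it was 5.66, 5.70 and 5.68 against 5.82, 5.82 and 5.79, and in FCT 5.87, 5.88 and 5.82 against 5.99, 6.01 and 5.97. The groups did not overlap in these regions, and the FLT-SAL means were 13.2%, 9.52% and 9.73% higher. In CT the GC-SAL mice stood at 6.02, 6.14 and 5.80 and the FLT-SAL mice at 6.01, 6.07 and 6.15, which overlap, with a mean 6.41% higher. The CT value rested on 1 AOI, GC-SAL replicate 3, without which the log2 difference was -0.0035. GC-SAL replicate 1 of CT held 140 nuclei, the fewest of the 48 AOIs.

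Complexes I, III, IV and V each showed this separation in CA, DG and FCT, with no overlap between the group means of single mice. For complex I the log2 differences were 0.24, 0.13, 0.13 and 0.05 in CA, DG, FCT and CT. For complex III they were 0.23, 0.21, 0.24 and 0.16, for complex IV 0.18, 0.13, 0.12 and 0.15, and for complex V 0.16, 0.21, 0.13 and 0.15. Without GC-SAL replicate 3 the CT values became -0.04 (complex I), 0.07 (III), 0.07 (IV) and -0.00066 (V). Complex II, the only complex that also belongs to the tricarboxylic acid cycle, stood at -0.02, -0.07, 0.16 and 0.09 (0.02 in CT without that mouse), and its mice overlapped in every region. The assembly factors stood at -0.04, -0.05, 0.06 and -0.06 (-0.10 in CT without that mouse), also with overlap. A difference between complexes was not tested.

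**Figure D5:**
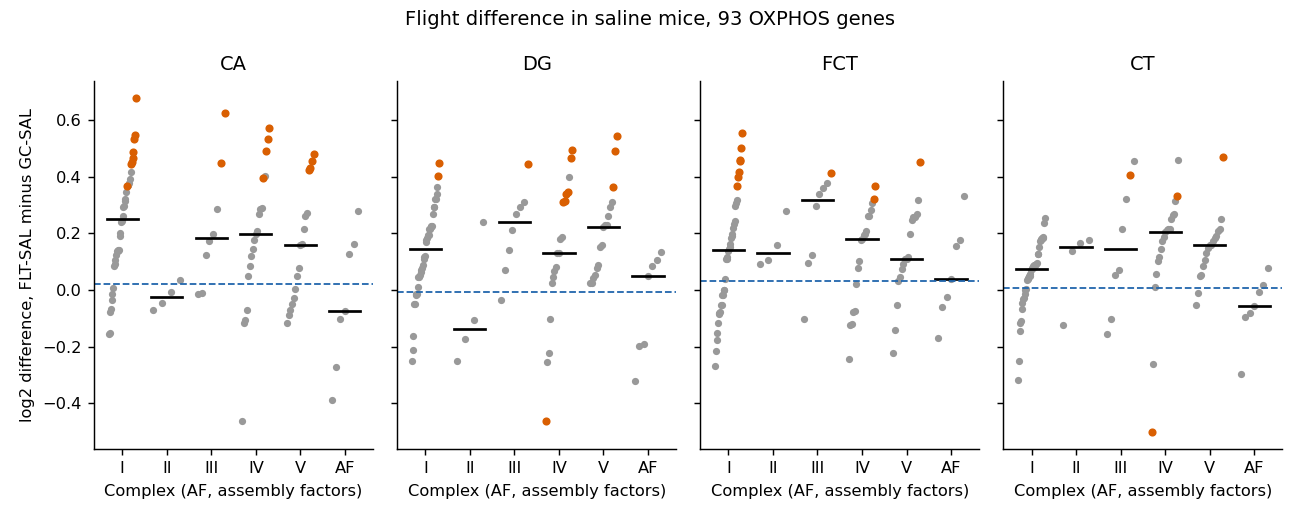
The log2 difference of FLT-SAL minus GC-SAL is plotted for each of the 93 members by complex in each region, with black bars for the median of a complex, orange points for an unadjusted limma p below 0.05, and the dashed line for the median of all genes. Most points of complexes I, III, IV and V lie above the dashed line in CA and DG, and complex II and the assembly factors lie around or below it there.

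Different members led in different regions, and those given below as leading, following or lowest are ordered by the limma statistic. In DG, Atp5b stood at 110, 115 and 110 in the GC-SAL mice and at 167, 159 and 165 in the FLT-SAL mice, with no overlap. Its log2 difference of 0.54 ± 0.131 had an adjusted limma p of 0.042, the only one of the 372 member tests below 0.05, and lay under the fold threshold. This adjusted p was 0.30 with quantile normalization, 0.059 with background subtraction and 0.066 to 0.28 with any 1 of the 6 mice left out, and 0.013 with edgeR and 0.0053 with DESeq2, which put 2 members below 0.05. GC-BuOE mice stood at 130, 111 and 121 and FLT-BuOE mice at 127, 139 and 117 for the same gene. Cox4i1 in DG followed, at 116, 133 and 116 against 150, 167 and 189 (0.47, adjusted p = 0.14), and then Ndufa4 (0.50, adjusted p = 0.27). On the lower side were Cox4i2, at 31.7, 28.9 and 36.0 against 17.8, 28.1 and 24.3 (-0.46), Ndufaf1 (-0.32) and Sdhd (-0.25).

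In CA the leading members were Uqcr11, a small subunit of complex III, Ndufs7, a core iron-sulfur subunit of complex I, and Cox7b. Uqcr11 stood at 69.3, 49.6 and 74.1 in GC-SAL mice and at 108, 92.4 and 94.7 in FLT-SAL mice (0.62, adjusted p = 0.20). Ndufs7 stood at 36.9, 45.7 and 31.1 against 55.3, 68.8 and 58.5 (0.68, adjusted p = 0.20), and Cox7b at 66.2, 74.3 and 68.2 against 106, 110 and 96.2 (0.57, adjusted p = 0.20). None of these groups overlapped. The lowest were Cox8c (-0.46), Ndufaf2 (-0.39) and Ndufaf6 (-0.27).

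In FCT, Ndufa6 stood at 36.9, 45.5 and 41.2 against 66.9, 57.9 and 58.0 (0.56, adjusted p = 0.45), followed by Atp5g3 (0.45) and Ndufa5 (0.50), while Ndufa13 (-0.27), Atp5e (-0.22) and Ndufab1 (-0.22) were lowest. In CT, Atp5o, the stalk subunit that confers sensitivity to oligomycin, stood at 53.4, 64.2 and 39.1 against 78.6, 64.0 and 71.8 with overlap (0.47, adjusted p = 0.74). It was followed there by Uqcrc2 (0.41) and Cox6a1 (0.33), and Cox8c (-0.50), Ndufb7 (-0.32) and Ndufaf8 (-0.30) were lowest. Uqcrc2, a core protein of complex III, was positive in every region, at 0.45, 0.44, 0.36 and 0.41 in the order CA, DG, FCT, CT. Atp5a1 was positive in each as well (0.43, 0.26, 0.27 and 0.15), as was Cox4i1 (0.49, 0.47, 0.26 and 0.12). Sdhb stood at -0.01, -0.17, 0.16 and 0.18, and none of these values passed the adjusted p.

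Neuronal markers moved with this difference as well. Their summed value was 409 to 456 in GC-SAL and 553 to 584 in FLT-SAL mice for CA, 476 to 540 against 615 to 683 for DG, 795 to 826 against 916 to 1096 for FCT, and 812 to 1635 against 1136 to 1556 for CT. The oligodendrocyte sum was 860 to 1013 against 999 to 1661 in FCT and 600 to 653 against 1081 to 1547 in CT. In FCT the ratio of signal to background was 2.52 to 3.13 in GC-SAL and 2.22 to 2.63 in FLT-SAL. Depth moved with it as well. Total counts per AOI were 370066 to 483270 in GC-SAL and 603927 to 948561 in FLT-SAL mice for CA, 496732 to 767199 against 965868 to 1372780 for DG, and 601288 to 897280 against 991160 to 1579380 for FCT, without overlap. In CT they overlapped, at 582154 to 1124863 against 988810 to 1440631. The FCT areas also held 400 to 472 nuclei in GC-SAL and 568 to 602 in FLT-SAL, on 146259 and 198761 µm2. The part of these values in the OXPHOS difference was not tested. Of the 16 glycolytic genes, 15, 15, 13 and 16 were positive in CA, DG, FCT and CT (medians 0.32, 0.31, 0.24 and 0.27), and none was called. Of the 8 carriers and cytochrome c genes, Slc25a4 was called in DG (log2 difference 0.60).

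Whether the flight difference of each gene varied between regions was tested in 1 fit over the saline mice. No member passed an adjusted p of 0.05, beside 0.0444% of all genes. An unadjusted p below 0.05 was reached by 2 of 93 members, Ndufs7 and Ndufa13, beside 4.29% of all genes.

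BuOE treatment in flight was examined by comparing FLT-BuOE with FLT-SAL mice, the latter being the same mice as above. Over the 4 regions, none of the 372 member tests was called by limma, edgeR or DESeq2, beside 0.0269% of tests over all genes. An unadjusted limma p below 0.05 was reached in 17, all lower in FLT-BuOE, beside 6.14% of tests over all genes in either direction, and in 9 with edgeR and 3 with DESeq2. All FLT-BuOE mice lay below all FLT-SAL mice in 32 of the 372 tests (7.25% over all genes) and above them in 11 (4.48%).

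The members' median log2 differences were -0.11, -0.09, -0.02 and -0.07 in CA, DG, FCT and CT, beside -0.05, -0.02, -0.07 and -0.02 for all genes. The FCT median became positive with edgeR (0.04), with DESeq2 (0.05) and without FLT-BuOE replicate 1 (0.03), and the CT median became -0.02 without FLT-SAL replicate 3. The mean over members was lower in FLT-BuOE by 0.10 in CA and by 0.10 in DG, without overlap of mice, and differed by -0.04 in FCT and -0.07 in CT, with overlap. The mean over all genes was itself lower without overlap of mice in CA, DG and FCT, by -0.05, -0.02 and -0.08. By complex, complexes I, III and IV were lower without overlap in CA (-0.11, -0.13 and -0.16) and DG (-0.11, -0.18 and -0.11), whereas complexes II and V overlapped in every region. The neuronal marker sum was 461 to 513 in FLT-BuOE and 553 to 584 in FLT-SAL mice for CA, without overlap, and 459 to 662 against 615 to 683 for DG, where all 5 markers were negative. For FCT the sums overlapped, at 936 to 1250 against 916 to 1096, and 3 of the 5 markers were positive and 2 negative. For CT they overlapped as well, at 1120 to 1441 against 1136 to 1556. All 5 oligodendrocyte markers were negative in CA, FCT and CT, and 3 were called lower in CT. Total counts were lower in FLT-BuOE without overlap in every region, at 400989 to 503039 against 603927 to 948561 for CA and 416744 to 628791 against 965868 to 1372780 for DG. Their part in the OXPHOS values was not tested.

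The leading members in DG were Atp5md, at 71.2, 71.2 and 54.3 in FLT-SAL and at 31.7, 48.8 and 42.2 in FLT-BuOE mice (-0.68, adjusted p = 0.32), then Atp5b (-0.36) and Uqcr11 (-0.39). In CA they were Ndufa3 (-0.51), Ndufb10 (-0.51) and Uqcrh (-0.34), in FCT Ndufa4l2 (-0.74), Uqcrc1 (-0.48) and Ndufv2 (-0.43), and in CT Atp5k (-0.41), Atp5md (-0.40) and Cox5a (-0.35). On the higher side stood Ndufaf6 and Atp5g3 in CA, Sdhc, Sdhd and Ndufc2 in DG, Ndufb4, Ndufs6 and Ndufb11 in FCT, and Atp5g2, Cox8c and Cox6a2 in CT, at 0.21 to 0.41.

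On the ground, GC-BuOE and GC-SAL mice were compared in the same way. None of the 372 member tests was called by limma (0.00158% of tests over all genes), 14 reached an unadjusted p below 0.05 (5.05%), and the counts were 12 with edgeR and 5 with DESeq2. edgeR called 1 member, Ndufb2 in DG, which read 35.9, 40.0 and 204 in the GC-SAL mice. In the other groups the DG means of this complex I accessory subunit were 56.0 (FLT-SAL), 42.1 (GC-BuOE) and 44.8 (FLT-BuOE), so 1 AOI stood apart from the other 11. In FCT, 72 of 93 members were positive. All 3 GC-BuOE mice lay above all 3 GC-SAL mice there for 16 members (938 of 15782 genes) and below them for 0 (767 genes). The FCT mean over members was 5.87, 5.88 and 5.82 in GC-SAL and 6.00, 6.01 and 5.94 in GC-BuOE mice, without overlap. The neuronal marker sum there was 795 to 826 in GC-SAL and 881 to 1087 in GC-BuOE mice, also without overlap. All 5 neuronal markers and all 16 glycolytic genes were positive in FCT, and all 5 oligodendrocyte markers were negative. The FCT areas measured 146259 µm2 in GC-SAL and 163177 to 173293 µm2 in GC-BuOE. The part of these values in the OXPHOS difference was not tested. The members' medians were 0.05, 0.02, 0.12 and 0.04 in CA, DG, FCT and CT, beside -0.009, -0.02, 0.009 and -0.003 for all genes. The CT median became -0.06 without GC-SAL replicate 3. By the limma statistic, the leading members on the higher side were Ndufa7 in CA (0.58), Uqcrc2 in DG (0.44), Cox6c in FCT (0.43) and Atp5o in CT (0.31). On the lower side, Ndufs4 (-0.54) and Atp5o (-0.48) were among those leading in CA, and Ndufs7 (-0.38) in FCT and Ndufa7 (-0.34) in CT. In DG they were Ndufb2 (-0.66), Sdhc (-0.61) and Atp5mpl (-0.55).

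Among BuOE-treated mice, FLT-BuOE against GC-BuOE gave no called member in 372 tests with limma, edgeR or DESeq2 (0.0459% of tests over all genes), and 22 with an unadjusted limma p below 0.05 (7.39%), 18 with edgeR and 10 with DESeq2. The medians were 0.03, 0.02, -0.03 and -0.01, and those of CA, FCT and CT changed sign under at least 1 alternative. Atp5a1 in CA stood at 112, 103 and 122 in GC-BuOE and at 182, 173 and 157 in FLT-BuOE mice, without overlap (0.60, adjusted p = 0.15). Sdhc in DG, a membrane anchor of complex II, stood at 23.3, 13.8 and 20.0 against 28.3, 40.0 and 32.2 (0.80, adjusted p = 0.18). It was followed there by Atp5mpl (0.58) and Atp5h (0.53). By the limma statistic, Ndufc1 was lowest in both cortical regions (log2 difference -0.55 in FCT and -0.50 in CT). Ndufaf1 was lowest by it in CA (-0.65), and Atp5md in DG (-0.48).

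The interaction of flight and BuOE, that is, the flight difference in BuOE mice minus that in saline mice, was tested per gene. No member passed an adjusted p of 0.05 with limma in any region (0.00792% of tests over all genes), and none was called with edgeR or DESeq2. An unadjusted limma p below 0.05 was reached in 22 of 372 tests (5.51%), in 10 with edgeR and in 3 with DESeq2. The members' medians were -0.13, -0.13, -0.14 and -0.14 in CA, DG, FCT and CT, beside -0.04, -0.004, -0.08 and -0.01 for all genes. Without GC-SAL replicate 3 the CT median became 0.008, with 47 members positive and 46 negative. With edgeR and DESeq2 the CA median became -0.06 and -0.08, and the FCT median -0.06 and -0.05. These medians use the GC-SAL and FLT-SAL mice of the flight comparison again. By the limma statistic, the leading negative terms in CA were Ndufa7 (-0.74), Uqcr11 (-0.64) and Cox4i1 (-0.48). In DG they were Uqcrc2 (-0.70), Ndufa3 (-0.57) and Atp5b (-0.47). In FCT they were Ndufb5 (-0.62), Ndufa10 (-0.61) and Ndufc2 (-0.57), and in CT Atp5k and Ndufc1 (-0.51 each). The largest positive terms were Sdhc in DG (0.91) and Cox8c in CT (0.68).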

How the data were processed

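Mouse brain areas were profiled with the GeoMx whole-transcriptome probe set. The authors made the deposited probe counts per area with the GeoMx NGS Pipeline 2.3.4, with repeat reads of 1 molecule removed. They then scaled each area to its upper quartile (Q3) in the GeoMx DSP Control Center 3.0.0.111, and the deposited Q3-normalized signal is linear, without background subtraction. Deposited tables of the authors' own comparisons hold log2 fold changes with p and q values and were not used.

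Groups were taken from the labels. limma 3.58.1 (R 4.3.3, trend) was fitted to log2(Q3 + 1) of all 15782 genes, per region over 12 areas with group as a factor, or over 48 areas with 16 region-by-group means and the mouse as a random block (correlation 0.0255) for regions. A fold change is on this log2(Q3 + 1) scale, which understates changes of low genes, and the pseudocount was 1. P-values were adjusted by Benjamini-Hochberg over all genes, and calls needed both a difference above 1.5-fold and an adjusted p below 0.05, except for the interaction and the test across regions, which used the adjusted p alone. All tests were two-sided. edgeR 4.0.16 and DESeq2 1.42.0 on the deposited counts, other normalizations, filters, pseudocounts and left-out mice were tried as alternatives, and the fits were tested on simulated data. CA alone and DG alone against the cortex, and the CT means of each complex without 1 GC-SAL mouse, were added after seeing the data.

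All 93 members matched 1 probe each, 88 matched 1 gene of GENCODE M21 (GRCm38), and 75 had a RefSeq promoter. Members were assigned to complexes by known role. Members, lists and tests were chosen with earlier results of these data known. Members named were those called, the 3 with the highest and lowest moderated statistic in a comparison, the highest and lowest mean of each complex, the core subunits and the isoform families, and 1 gene that this rule names is not reported here. Values named beyond this rule (other DG against CA members, Cox8a and genes of other lists) were chosen after their values were seen. Whether mice of different groups with the same number were paired is not given by the labels, so the main fits used no pairing.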

Additional observations from a re-analysis of the deposited data

How the results depend on the processing

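Across the alternatives, no member was called for flight in saline mice, flight in BuOE mice, BuOE in flight or the interaction in any region, with the exception that dropping the fold threshold gave 1 in DG (Atp5b in FLT-SAL). For GC-BuOE against GC-SAL, edgeR gave 1 in DG. With a replicate block the count of called members was 0 in each of these comparisons. Same-numbered mice did not deviate together (48 correlations from -0.18 to 0.096, none over 0.1), so they were taken to share only a number, and a mouse correlated best with its own number throughout in 6 of 16 comparisons.

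The 7 members called lower in the hippocampus became 2 with quantile normalization (Cox4i1 and Atp5b), 16 with background subtraction, 3 in saline mice alone and 5 to 8 with 1 mouse left out. Without the fold threshold 65 differed, of which 64 were lower and 1 higher. For DG against CA, 0 became 1 with quantile normalization (Cox8a), 5 with background subtraction and 17 without the fold threshold. Background subtraction moved the median log2 difference of all genes there to 0.36 and turned that of the members to -0.02, as quantile normalization did (-0.03), and it turned Cox6a2 to 1.29. The mean flight difference of the members moved from 0.18 to 0.13 with quantile normalization and to 0.27 with background subtraction in CA, from 0.13 to 0.089 and 0.17 in DG, and in FCT from 0.13 to 0.24 with background subtraction and 0.11 with TMM log2 CPM. It ranged from -0.0035 to 0.17 in CT with 1 mouse left out. The causes were not tested. Depth limited low members such as Uqcrc1, whose counts fell to 6 in an area.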
